A study of Mus musculus with 12 samples.

Results

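RNA levels in KPC cells after 21 h of cisplatin were compared with those in control cells across all genes. The comparison rests on 4 of the 12 libraries of the series, the 2 RNA-seq libraries at 21 h and the 2 RNA-seq libraries of the control. It covers 9592 transcripts, out of 15803 with a read in at least 1 of the 12 libraries. RNA was measured by RNA-seq and ribosome-protected fragments (footprints) by ribosome profiling in one design, with 2 libraries per assay in the control, at 6 h and at 21 h. KPC is a mouse pancreatic ductal adenocarcinoma line from a tumour in which Cre under the Pdx1 promoter switches on a mutant Trp53 allele. Treated cells received 20 µM cisplatin, a dose given in the study's methods. Control cells are labelled as untreated and received PBS according to those methods. How long they were in PBS is not labelled, and the same control libraries serve both time points. The labels do not say whether the libraries of a group came from separate cultures, so the p-values below measure the spread between these libraries only.

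Cisplatin binds purine bases and links neighbouring bases of the same strand or bases of opposite strands. Such adducts block DNA polymerases and halt RNA polymerase II in the body of transcribed genes, and they are removed by nucleotide excision repair and crosslink repair. Cells with damaged DNA are known to activate p53, the stress-activated MAP kinases with their AP-1 transcription factors, and NF-kB.

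The RNA-seq libraries held 2462084 and 2901692 reads with PBS and 2329158 and 2090245 at 21 h. Transcripts of Lars2, Tmem38b and Mettl26 took 54.5 and 53.8% of these reads with PBS and 53.8 and 51.8% at 21 h. In the footprint libraries the same 3 transcripts held only 271 and 205 reads with PBS and 141 and 165 at 21 h. Why their RNA-seq shares were so large was not tested. These 3 transcripts were taken out before the RNA values were rescaled, which left 1119096 and 1341584 reads with PBS and 1075943 and 1007194 at 21 h. Levels are given in RPKM, reads scaled by the length of the transcript and by the total of the reads left, after scaling between libraries. Across the 9592 transcripts tested, which are not independent replicates, log2(RPKM + 1) correlated between the 2 libraries of a group. Pearson's r was 0.974 for PBS and 0.972 for 21 h. The 2 libraries of a group differed by 1.49 times the counting noise with PBS (9405 genes) and by 1.64 times at 21 h (9245 genes), as chi-square per degree of freedom.

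The label of an epithelial tumour line was checked against marker genes. Of 9 epithelial markers, 7 had a read, and their summed level was 3359 and 3171 RPKM with PBS and 2775 and 2734 RPKM at 21 h. The keratin Krt8 led them with PBS and Krt18 at 21 h, while Cldn3 and Cldn7 were at 0 and Epcam had 0 and 1 reads with PBS and 4 and 0 reads at 21 h. All 5 ductal transcription factors searched had reads, with summed levels of 65.8 and 56.9 RPKM with PBS and 57.0 and 59.5 RPKM at 21 h and Foxa2 as the most abundant at 21 h. Under these similar sums, Onecut2 went from 18.6 and 17.1 RPKM to 6.36 and 5.33 RPKM and Sox9 from 7.80 and 5.04 RPKM to 12.3 and 13.5 RPKM, both chosen after their values were seen. Of 8 mesenchymal markers, 7 had a read, and Vim brought their sum to 1588 and 1436 RPKM with PBS and 1111 and 1063 RPKM at 21 h, with Twist1 at 0. The RNA thus held epithelial keratins together with the mesenchymal filament vimentin. Of 4 endothelial markers (Pecam1, Kdr, Cdh5 and Tek), 0 had a read. Of 7 leukocyte markers, 2 had a read, led by Cd68, with Ptprc, Lyz2, Adgre1, Cd3e and Cd79a at 0 and sums of 0.888 and 2.21 RPKM with PBS and 4.49 and 8.99 RPKM at 21 h. Of 8 fibroblast markers, 6 had a read, and the list, led by Acta2 in PBS library 1 and by Col3a1 in the other 3 libraries and with Col1a2 and Pdgfra at 0, summed to 4.28 and 4.35 RPKM with PBS and 4.00 and 2.87 RPKM at 21 h. Of 6 acinar markers, Cela1 alone had a read, at 4.85 and 6.04 RPKM with PBS and 4.90 and 0.867 RPKM at 21 h, with Prss1, Cpa1, Amy2a1, Ctrb1 and Ptf1a at 0. RPKM hold no base sequence, so the Trp53 allele could not be read. The part of these markers in the results below was not tested.

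Of the 9592 transcripts, 1091 were higher at 21 h than with PBS (11.4%) and 1162 were lower (12.1%), at an adjusted p under 0.05 from limma on log2(RPKM + 1), and all adjusted p-values below are from limma. In all 2253 of them the 21 h libraries did not overlap the PBS libraries, and of all transcripts tested, called or not, 3170 lay wholly above and 2949 wholly below. Exact permutation of 2 libraries against 2 reaches no two-sided p under 0.333, and each call rests on limma's estimate of the spread across genes. The median log2 fold change was 0.83 for the transcripts called higher, -1.02 for those called lower and 0.02 for all tested, of which 4891 were above 0. With a log2 fold change above 1 required in addition, 350 transcripts were higher (3.65%), and with one below -1 required, 598 were lower (6.23%). Beyond a log2 fold change of 2 in size, 24 were higher and 114 were lower. A pseudocount of 1 RPKM understates changes of transcripts at low levels. RPKM are shares of a library, and in bulk RNA fewer cells with a transcript and less of it per cell cannot be told apart.

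**Figure D1:**
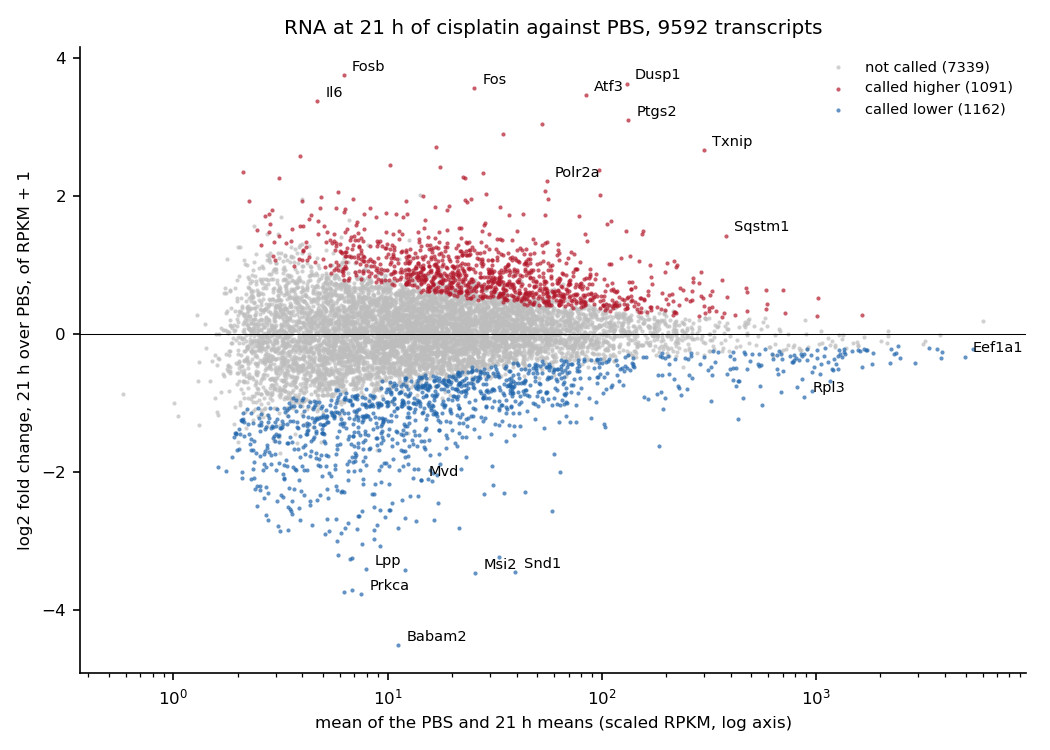
Log2 fold change at 21 h over PBS (vertical axis) against mean RNA level on a log scale (horizontal axis, RPKM) for the 9592 transcripts tested, with the 1091 called higher and 1162 called lower in colour. The largest fall, of Babam2, reaches -4.51 and the largest rise, of Fosb, 3.75.

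Leaving out 1 library lowered both counts by more than 1.5 times in several cases. Without PBS library 1, 505 transcripts were higher and 552 lower. Without PBS library 2, 536 were higher and 573 lower. Without 21 h library 1, 622 were higher, and without 21 h library 2, 555 were higher and 772 lower. The 12 largest rises and 12 largest falls are described first, taken among called transcripts with at least 20 reads on average in the higher group. These 24 passed the test without any single library, with 1 exception. Cyp1a1 fell below the filter, a mean of at least 2 RPKM over the RNA-seq libraries fitted, and was not tested without 21 h library 2. In limma's eBayes without the trend of spread on level (below, without the trend), 697 transcripts were higher and 891 lower.

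The footprint libraries of the same groups gave a second readout of these transcripts. In them, 1960 of 10383 coding sequences were higher at 21 h (18.9%) and 2101 were lower (20.2%). Of 1084 transcripts with more RNA that were also tested in footprints, 775 had more footprints and 4 had fewer, with a median footprint log2 fold change of 0.63. Of 1153 transcripts with less RNA, 933 had fewer footprints and 16 had more, with a median of -0.97. Both assays used the cleared supernatant of lysed cells according to the protocol, and the labels do not say which libraries share a lysate.

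Among the 12 largest rises were early response genes, which cells can transcribe within minutes of a stimulus. The phosphatase gene Dusp1 (ENSMUSG00000024190), whose product switches off p38 and JNK in the nucleus, was at 14.4 and 23.9 RPKM with PBS and 257 and 227 RPKM at 21 h. The log2 fold change was 3.63 (standard error, SE, 0.23, limma adjusted p = 3.29e-05). Atf3 (ENSMUSG00000026628), a stress-induced partner of AP-1, was at 10.8 and 15.8 RPKM with PBS and 144 and 167 RPKM at 21 h, a log2 fold change of 3.47 (adjusted p = 3.29e-05, SE 0.21). Fos (ENSMUSG00000021250) encodes the AP-1 subunit that pairs with Jun, and its RNA was at 3.82 and 2.47 RPKM with PBS and 52.4 and 42.8 RPKM at 21 h. Its log2 fold change was 3.56 (adjusted p = 6.02e-05, SE 0.26). Jun was at 7.3 and 7.47 RPKM and then 59.1 and 63.9 RPKM, a log2 fold change of 2.90 (adjusted p = 4.33e-05, SE 0.19). Egr1, a zinc finger factor induced through ERK, was at 9.59 and 11.5 RPKM with PBS and 94.5 and 93.8 RPKM at 21 h, a log2 fold change of 3.05 (adjusted p = 5.78e-05, SE 0.21). Fosb, which encodes another AP-1 subunit, had 0 reads in both PBS libraries and 48 and 53 reads at 21 h. Against a floor of 3 reads over the PBS group, Fosb was at least 38.6-fold higher. Its fitted log2 fold change of 3.75 (adjusted p = 0.000568, SE 0.44) depends on the pseudocount, and floors and counting intervals here cover counting error only. Fosb was at 1.83 and 0.26 RPKM at 6 h and passed the filter only through its 21 h libraries.

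Other large rises encode enzymes, secreted factors and proteins that shorten the life of mRNA. Ptgs2 (ENSMUSG00000032487), the inducible cyclooxygenase of prostaglandin synthesis, was at 26.3 and 27.6 RPKM with PBS and 243 and 234 RPKM at 21 h. Its log2 fold change was 3.10 (adjusted p = 2.85e-06, SE 0.12). Txnip (ENSMUSG00000038393), which encodes an inhibitor of thioredoxin and of glucose uptake, was at 83.6 and 77.7 RPKM and then 550.0 and 489.7 RPKM. The log2 fold change of Txnip was 2.67 (adjusted p = 2.85e-06, SE 0.11), and its gain in RPKM was also the largest of all called transcripts. Btg2, whose product recruits the deadenylase to mRNA and slows the cell cycle, was at 3.59 and 3.8 RPKM and then 32.7 and 27 RPKM, a log2 fold change of 2.71 (adjusted p = 0.000353, SE 0.29). Zfp36, a decay factor for mRNAs with AU-rich elements, was at 2.89 and 2.13 RPKM and then 15.9 and 20.3 RPKM, a log2 fold change of 2.44 (adjusted p = 0.000498, SE 0.28) (1.62 with a pseudocount of 5). The chemokine gene Cxcl2 was at 6.46 and 3.36 RPKM and then 35.9 and 24.3 RPKM, a log2 fold change of 2.42 (adjusted p = 0.000698, SE 0.30). Cyp1a1, a cytochrome P450 gene induced by the aryl hydrocarbon receptor, had 1 read in each PBS library and 12 and 31 reads at 21 h. The ratio was 24.7-fold with a 95% counting interval of 6.42 to 210.1, and its fitted log2 fold change of 2.58 (adjusted p = 0.00506, SE 0.48) depends on the pseudocount.

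In footprints, each of these 12 transcripts was also higher at 21 h. The smallest footprint log2 fold change among them was that of Cxcl2 (1.18, limma adjusted p = 0.0296) and the largest that of Atf3 (3.65, limma adjusted p = 1.11e-06). Dusp1 footprints rose by 3.33 on the log2 scale and those of Fos by 3.23. For comparison, 775 of 1084 transcripts with more RNA and 18.9% of all coding sequences were called higher in footprints.

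**Figure D2:**
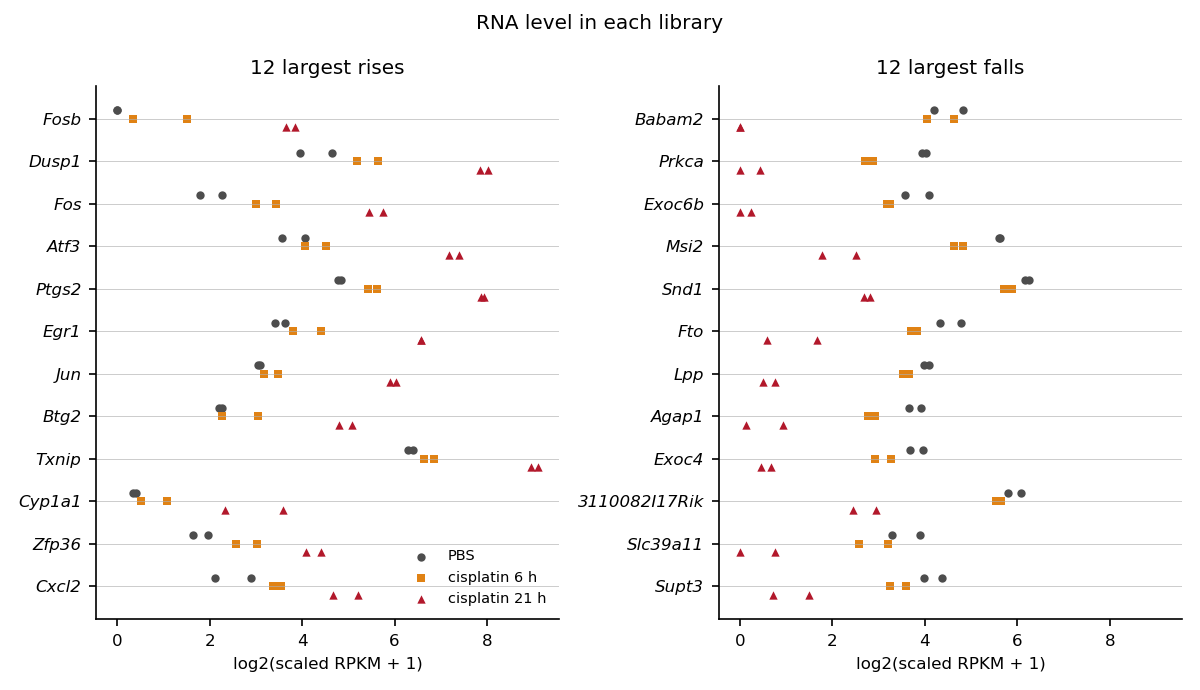
RNA level in each library (log axis, RPKM + 1) of the 12 transcripts with the largest rises and the 12 with the largest falls, with PBS, 6 h and 21 h in different colours. Transcripts were chosen among those called with groups that did not overlap and with at least 20 reads on average in the higher group.

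The 12 largest falls came from genes with spans of 101 to 725 kb of DNA. Snd1 (ENSMUSG00000001424), whose product binds and cuts RNA and acts in RNA silencing and transcription, was at 75.4 and 71 RPKM with PBS and 5.46 and 6.07 RPKM at 21 h. The log2 fold change was -3.46 (adjusted p = 3.84e-06, SE 0.15). Msi2, which encodes a Musashi RNA-binding protein, was at 48.3 and 47.3 RPKM and then 2.44 and 4.66 RPKM, a log2 fold change of -3.47 (adjusted p = 5.78e-05, SE 0.24). Fto, the gene of an RNA demethylase, was at 19.1 and 26.3 RPKM and then 0.508 and 2.16 RPKM, a log2 fold change of -3.42 (adjusted p = 0.000305, SE 0.35). Lpp, which encodes a LIM protein of focal adhesions, was at 16 and 14.7 RPKM and then 0.41 and 0.684 RPKM, a log2 fold change of -3.41 (adjusted p = 6.94e-05, SE 0.26). Agap1, whose product inactivates Arf GTPases at endosomes, was at 14.1 and 11.7 RPKM and then 0.9 and 0.0954 RPKM, a log2 fold change of -3.26 (adjusted p = 0.000332, SE 0.34). 3110082I17Rik, a gene named only by its clone, was at 54.5 and 66.1 RPKM and then 4.44 and 6.72 RPKM, a log2 fold change of -3.24 (adjusted p = 3.29e-05, SE 0.20). Fto had a log2 fold change of -2.13 with a pseudocount of 5, Lpp one of -1.88 with a pseudocount of 5, and Agap1 one of -1.70 with a pseudocount of 5 and -5.09 with voom.

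The other 6 of the 12 largest falls had at most 3 reads in each 21 h library, and their fitted log2 fold changes also depend on the pseudocount. Babam2 (ENSMUSG00000052139), which encodes a subunit of the deubiquitinase complexes that work with BRCA1, had 43 and 33 reads with PBS and 0 in both libraries at 21 h. Against a floor of 3 reads over the 21 h group it was at least about 22.1-fold lower, with a fitted log2 fold change of -4.51 (adjusted p = 5.69e-05, SE 0.31). Prkca, the gene of protein kinase C alpha, had 135 and 173 reads with PBS and 0 and 3 at 21 h. The PBS level of Prkca was 89.5-fold the 21 h level, with a 95% counting interval of 30.3 to 436. The exocyst tethers secretory vesicles to the plasma membrane, and genes of this complex gave 2 of the 12 falls. Exoc6b had 98 and 80 reads with PBS and 0 and 1 at 21 h, a ratio of 155-fold (95% counting interval 27.5 to 6164). Exoc4 had 79 and 76 reads with PBS and 2 and 3 at 21 h, a ratio of 27.0-fold (95% counting interval 11.3 to 84.4). Slc39a11, a zinc transporter gene, had 43 and 33 reads and then 0 and 2, a ratio of 33.1-fold (95% counting interval 8.86 to 279). Supt3, which encodes a subunit of the SAGA co-activator, had 25 and 40 reads and then 3 and 1, a ratio of 14.2-fold (95% counting interval 5.28 to 53.6). The fitted log2 fold changes were -3.77 for Prkca, -3.72 for Exoc6b, -3.25 for Exoc4, -3.22 for Slc39a11 and -3.08 for Supt3. Footprints of the 12 transcripts with the largest falls were all lower too, from -4.16 for Prkca to -2.55 for 3110082I17Rik on the log2 scale. For comparison, 933 of 1153 transcripts with less RNA and 20.2% of all coding sequences were called lower in footprints.

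Fold changes differed with the length of genomic DNA between a gene's start and end. This span was taken from RefSeq on GRCm38.p6 and used as a length only, since the authors' files were made on GRCm39, and it was found for 9541 of the 9592 transcripts tested (99.5%). The 12 largest rises had spans of 2.04 to 15.9 kb and the 12 largest falls spans of 101 to 725 kb. The median span was 14.6 kb for transcripts called higher, 91.7 kb for those called lower and 22.5 kb for all tested. Among genes under 5 kb, 158 of 1122 transcripts were higher and 105 lower, with a median log2 fold change of 0.08. Of these, transcripts under the median PBS level had a median of 0.196 and those at or above it one of 0.005. The median was 0.17 from 5 to 10 kb (210 higher and 65 lower of 1277), 0.20 from 10 to 20 kb (360 higher and 80 lower of 2003) and 0.08 from 20 to 50 kb (317 higher and 151 lower of 2727). In genes of 20 kb or more it declined with each class. It was -0.20 from 50 to 100 kb, where 38 were higher and 208 lower of 1404. From 100 to 200 kb it was -0.68, with 2 higher and 311 lower of 721. At 200 kb and over it was -1.62, and 230 of 287 transcripts (80.1%) were lower while 3 were higher. This median was -0.91 with a pseudocount of 5 and -0.55 without a filter.

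The decline with span was present in each treated library taken alone. At 200 kb and over, the median difference from the mean of the PBS libraries was -1.64 in 21 h library 1 and -1.52 in 21 h library 2, while the 2 PBS libraries differed from each other by a median of -0.01. The longest class was lowest at low and at high levels of RNA. Among transcripts under the median PBS level, 75.6% of 205 in the longest class were lower and the median was -1.58. Among transcripts at or above it, 91.5% of 82 were lower and the median was -1.72. In footprints, the median of the longest class was -1.96 (281 coding sequences) and that of the class under 5 kb 0.19 (1077 coding sequences). At 6 h, against the same PBS libraries, the RNA medians were -0.50 at 200 kb and over and 0.06 under 5 kb. In that comparison 0 transcripts passed the test. Spearman's rank correlation between fold change and span was -0.38 across the 9541 genes, which share their libraries and are no independent replicates. The rank correlation with the length of the mature transcript was -0.13 across the same genes. In 7 classes of transcript length with nearly equal numbers, the median went from 0.02 in the shortest (204 to 1366 bases) to -0.20 in the longest (5511 to 40378 bases).

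**Figure D3:**
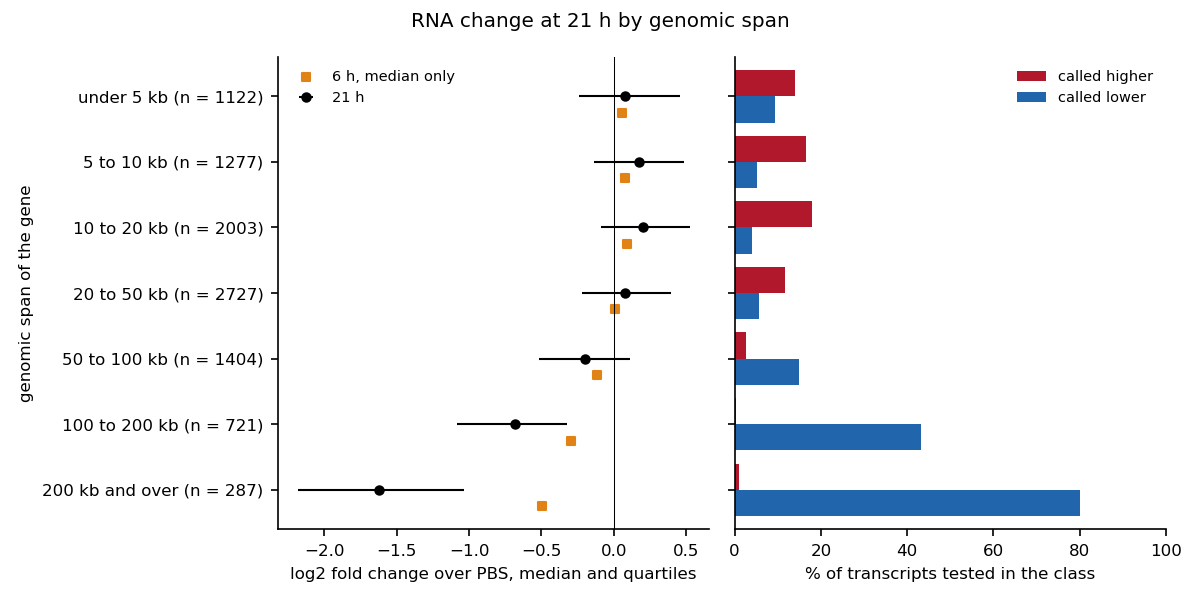
Median log2 fold change over PBS with quartiles at 21 h, the median at 6 h (left, log2 axis), and the percentage of transcripts called higher or lower at 21 h (right) in 7 classes of genomic span. At 200 kb and over the 21 h median is -1.62 and 80.1% of transcripts are lower.

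A few long genes went the other way, and they were chosen after their values were seen. At 200 kb and over, 2 of the transcripts that rose were Pde4b and Lmo7. Pde4b, a cyclic AMP phosphodiesterase gene with a span of 519.9 kb, was at 4.45 and 4.93 RPKM with PBS and 10.5 and 11.1 RPKM at 21 h (log2 fold change 1.06, limma adjusted p = 0.0221), and its call was lost without any 1 of the 4 libraries compared (adjusted p of 0.0759 to 0.113). Lmo7, which encodes a junction-associated LIM protein, was at 23.8 and 25.7 RPKM and then 44.7 and 40.7 RPKM (log2 fold change 0.76, limma adjusted p = 0.0112), and its call was lost without PBS library 1 or 21 h library 1 (adjusted p of 0.0743 and 0.0617). From 100 to 200 kb, the kinase gene Sgk1 rose by 1.18 and the chromatin remodeller gene Baz1a by 0.95 on the log2 scale, the latter call being lost without 21 h library 2 (adjusted p = 0.0527). Pde4b was not called without a filter. Spans come from the outermost start and end in the reference table, and which start these cells used was not tested.

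Dusp1 and several other transcripts with large rises share a letter pattern before their start. RefSeq promoter windows, 250 bases before to 50 bases after the start, were searched on both strands in the 7779 of the transcripts tested that had one, and ranks are among these. The cyclic AMP response element (CRE), TGACGTCA, which ATF and CREB family proteins bind, was found for 7 of the 50 largest rises (14%), 2 of the 50 largest falls (4%) and 3.78% of all tested. It was in 1.79% of all 32851 windows of the table. The AP-1 site, TGACTCA, was found for 6% of the rises, 4% of the falls and 4.50% of all tested, and in 5.20% of all windows. The TATA box, TATAAA, was found for 14% of the rises, 10% of the falls and 8.73% of all tested, and in 13.6% of all windows. A match describes the letters only and is no evidence of binding.

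The windows of 5 transcripts with a CRE among these 50 rises are printed because they show where the motif lies. They are RefSeq sequences on GRCm38.p6, 5′ to 3′ on the gene's strand, with the CRE and the TATA box in capitals. The first base of the CRE lies 143 bases before the start in Dusp1 (chr17:26508423-26508722, minus strand) and 166 in Btg2 (chr1:134079106-134079405, minus strand). In Ppp1r15a (chr7:45526219-45526518, minus strand) it lies 12 bases before the start and in Areg (chr5:91139349-91139648, plus strand) 61. In Zfand2a (chr5:139484442-139484741, minus strand) it lies 125 bases before the start. Areg also holds a TATA box 31 bases before its start, and the TATA letters of Ppp1r15a lie after its start.
Dusp1: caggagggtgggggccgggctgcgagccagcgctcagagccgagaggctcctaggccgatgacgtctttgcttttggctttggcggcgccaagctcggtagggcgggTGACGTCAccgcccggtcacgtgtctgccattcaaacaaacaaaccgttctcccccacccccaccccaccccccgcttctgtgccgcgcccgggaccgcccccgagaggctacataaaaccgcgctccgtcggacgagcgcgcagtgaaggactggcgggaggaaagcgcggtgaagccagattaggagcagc
Btg2: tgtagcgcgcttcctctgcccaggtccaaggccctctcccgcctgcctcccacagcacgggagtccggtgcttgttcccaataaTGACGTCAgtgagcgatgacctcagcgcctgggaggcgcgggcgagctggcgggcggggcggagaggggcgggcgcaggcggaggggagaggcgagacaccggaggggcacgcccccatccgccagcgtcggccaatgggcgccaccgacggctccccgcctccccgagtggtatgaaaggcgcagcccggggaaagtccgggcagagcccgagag
Ppp1r15a: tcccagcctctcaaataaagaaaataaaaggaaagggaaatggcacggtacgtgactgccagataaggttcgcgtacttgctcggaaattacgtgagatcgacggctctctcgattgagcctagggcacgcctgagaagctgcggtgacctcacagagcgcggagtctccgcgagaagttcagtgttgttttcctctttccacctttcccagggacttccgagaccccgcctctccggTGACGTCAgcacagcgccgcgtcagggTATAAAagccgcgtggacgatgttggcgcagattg
Areg: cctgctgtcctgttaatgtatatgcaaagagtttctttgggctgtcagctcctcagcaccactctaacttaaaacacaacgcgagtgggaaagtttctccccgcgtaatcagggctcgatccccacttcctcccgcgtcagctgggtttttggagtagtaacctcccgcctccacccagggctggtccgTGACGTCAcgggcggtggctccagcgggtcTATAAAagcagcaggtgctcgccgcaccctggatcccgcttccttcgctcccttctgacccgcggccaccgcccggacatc
Zfand2a: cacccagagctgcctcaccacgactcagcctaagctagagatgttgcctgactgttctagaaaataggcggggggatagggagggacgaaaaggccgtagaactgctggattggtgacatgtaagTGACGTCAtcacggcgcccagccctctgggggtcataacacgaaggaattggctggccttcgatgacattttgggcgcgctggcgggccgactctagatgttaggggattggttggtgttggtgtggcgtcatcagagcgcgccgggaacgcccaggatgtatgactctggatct

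AP-1 and the other early response factors were 28 transcripts tested, of which 22 were higher and 0 lower in the limma fit (78.6% and 0%, with 11.4% and 12.1% in all tested), with a median log2 fold change of 1.32 against 0.02 for all tested. Without 21 h library 1, 1 of them was called lower. The median stayed between 0.94 and 1.40 under the other settings and was 1.15 without 21 h library 2. In footprints 23 of the 28 were higher (18.9% in all coding sequences tested), with a median of 1.33. Their summed RNA level was 651 and 673 RPKM with PBS and 1702 and 1594 RPKM at 21 h. Fosb, Fos, Atf3, Egr1, Jun, Btg2 and Zfp36, all among the 12 largest rises, belong to this list. It and the lists below were chosen with earlier results of these data known. The shares called in them are therefore descriptions and no independent support.

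Negative regulators of MAP kinases and ligands of the EGF receptor are both induced by ERK signalling. Of 14 MAPK phosphatases and feedback inhibitors tested, 5 were higher and 1 was lower (35.7% and 7.14%, with 11.4% and 12.1% in all tested), and their median was 0.44. The JNK and ERK phosphatase gene Dusp4 was at 20.3 and 19.8 RPKM with PBS and 47.3 and 41.7 RPKM at 21 h, a log2 fold change of 1.11 (adjusted p = 0.00129, SE 0.15). Spry2, which encodes a Sprouty inhibitor of receptor signalling, was at 18.5 and 20.3 RPKM and then 39.9 and 44.2 RPKM, a log2 fold change of 1.08 (adjusted p = 0.0019, SE 0.16). Dusp14, another phosphatase gene, rose by 1.29, and this call was lost without PBS library 1 or 21 h library 1 (adjusted p of 0.0799 and 0.0665). The count of 1 lower was 2 after quantile normalization or with voom. The ERK inhibitor gene Spred2 was the 1 that fell, and it was chosen after its values were seen. Of 7 EGF family transcripts tested, 4 were higher and 0 lower in the limma fit (57.1% and 0%, with 11.4% and 12.1% in all tested), with a median of 1.45. The ligand gene Areg was at 36.1 and 40.4 RPKM and then 157 and 157 RPKM, a log2 fold change of 2.01 (adjusted p = 0.00011, SE 0.17). Ereg was at 22.1 and 22.5 RPKM and then 85.6 and 94.5 RPKM, a log2 fold change of 1.96 (adjusted p = 6.48e-05, SE 0.14). Hbegf was at 28.3 and 21.6 RPKM and then 81.2 and 87 RPKM, a log2 fold change of 1.72 (adjusted p = 0.000395, SE 0.19). These 3 ligands lay wholly above their controls, as did all 1091 transcripts called higher and 3170 of the 9592 tested. Errfi1, whose product inhibits the receptor's kinase, rose by 1.45. Without a filter, more of this list was tested and its median was 0.33. The count of 0 lower by limma was 1 with voom.

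The integrated stress response lowers general translation while ATF4 and CHOP induce genes of amino acid supply and recovery. Of 27 such transcripts tested, 13 were higher and 1 was lower (48.1% and 3.7%, with 11.4% and 12.1% in all tested), with a median of 0.41. Ddit3 (ENSMUSG00000025408), the CHOP gene, was at 23.1 and 40.1 RPKM with PBS and 175 and 152 RPKM at 21 h. The groups did not overlap, and the log2 fold change was 2.38 (adjusted p = 0.000439, SE 0.26) in RNA and 3.59 in footprints. Ppp1r15a, the GADD34 gene, whose product restores translation, was at 8.61 and 8.48 RPKM and then 44.2 and 49.9 RPKM, a log2 fold change of 2.33 (adjusted p = 6.94e-05, SE 0.18). Trib3, a pseudokinase gene induced by CHOP, was at 23.9 and 17.3 RPKM and then 51.4 and 42.2 RPKM, a log2 fold change of 1.16 (adjusted p = 0.00406, SE 0.21). Vldlr, a lipoprotein receptor gene, was the 1 that fell. It was chosen after its values were seen, and its call was lost without PBS library 1, PBS library 2 or 21 h library 2 (adjusted p of 0.0649 to 0.115). Without either 6 h library, 2 of the list were lower. The count of 1 lower by limma was 0 at a mean of at least 10 RPKM and 2 without the trend, with only the 4 libraries compared or with voom.

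The unfolded protein response of the endoplasmic reticulum (ER) starts at the sensors Ern1, Eif2ak3 and Atf6. Of 29 transcripts of sensors, ER chaperones and ER-associated degradation tested, 2 were higher and 5 lower (6.9% and 17.2%, with 11.4% and 12.1% in all tested), with a median of -0.11. Atf6 was at 10.9 and 12.3 RPKM with PBS and 4.62 and 5.83 RPKM at 21 h, a log2 fold change of -1.02 (adjusted p = 0.0133, SE 0.24), on a span of 164 kb. Xbp1, the transcription factor gene spliced by the Ern1 product, was at 50.6 and 37.3 RPKM and then 27.6 and 24.1 RPKM, a log2 fold change of -0.73 (adjusted p = 0.0178, SE 0.18). Ero1a, which encodes the oxidase of disulfide formation, fell by 0.93. By contrast the main ER chaperone gene Hspa5 was at 179 and 198 RPKM and then 268 and 317 RPKM, a log2 fold change of 0.63 (adjusted p = 0.00343, SE 0.11), and its footprints had a log2 fold change of 0.09 (adjusted p = 0.393). Herpud1, an ER degradation gene, rose by 0.76. Footprint log2 fold changes were -0.14 for Xbp1 (limma adjusted p = 0.423), -1.27 for Atf6, -0.59 for Ero1a and 0.65 for Herpud1. In footprints 3 of the 29 were higher and 13 lower (18.9% and 20.2% in all coding sequences tested), with a median of -0.30. The call of Atf6 was lost without PBS library 1, PBS library 2 or 21 h library 1 (adjusted p of 0.0561 to 0.0878), that of Xbp1 without PBS library 1 or 21 h library 2 (adjusted p of 0.136 and 0.0915), and that of Herpud1 without PBS library 2 or 21 h library 1 (adjusted p of 0.0572 and 0.0513). The count of 5 lower was 3 without either PBS library, and the count of 2 higher was 1 without PBS library 2 or 21 h library 1. Xbp1 and Hspa5 were not called without the trend. The count of 2 higher was 1 without the trend, and the count of 5 lower was 2 without the trend and 10 with voom. The RNA median was -0.17 without PBS library 2 or without a filter, -0.05 without 21 h library 2, -0.06 with a pseudocount of 5 and 0.00 at a mean of at least 10 RPKM.

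The remaining genes of ER sensing and degradation that the study follows did not pass the test. Ern1 was at 8.9 and 10.4 RPKM with PBS and 5.35 and 6.36 RPKM at 21 h, with all treated values below all controls and a log2 fold change of -0.64 (adjusted p = 0.0937, SE 0.25), and it was called lower with voom. Eif2ak3, the PERK gene, had overlapping groups at 4.76 and 3.3 RPKM and then 3.81 and 3.41 RPKM. The ubiquitin ligase gene Syvn1 had a log2 fold change of 0.52 and its partner Sel1l one of -0.41, with adjusted p-values of 0.2 and 0.241 from limma. A p above the threshold does not show that levels were the same.

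Heat shock genes encode cytosolic chaperones under the factor HSF1. Of 19 tested, 9 were higher and 2 lower (47.4% and 10.5%, with 11.4% and 12.1% in all tested), with a median of 0.40. Zfand2a, which encodes a proteasome-associated protein induced by arsenite and heat, was at 15.3 and 17.8 RPKM with PBS and 53.7 and 60.6 RPKM at 21 h. Its log2 fold change was 1.73 (adjusted p = 0.000193, SE 0.16) in RNA and 2.68 in footprints. The co-chaperone genes Dnajb4 and Dnaja1 rose by 0.84 and 0.72. The small heat shock protein gene Hspb1 had only 4 and 6 reads with PBS and 21 and 13 at 21 h, with a log2 fold change of 1.73 (adjusted p = 0.0342, SE 0.50). The call of Hspb1 was lost without any 1 of the 4 libraries compared (adjusted p of 0.0658 to 0.154), and that of Dnaja1 without PBS library 2 (adjusted p = 0.0545). The count of 9 higher was 5 without PBS library 1, 3 without PBS library 2, 6 without 21 h library 1 and 5 without 21 h library 2, while the count of 2 lower was 1 in 5 of the 6 fits that left out a library, 21 h library 2 being the exception. Hspb1 was not called without the trend or without a filter. The count of 9 higher was 4 without the trend. The count of 2 lower by limma was 1 without a filter, without scaling, with only the 4 libraries compared or with a replicate block and 0 without the trend.

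Targets of p53 hold cell cycle inhibitors and killer genes. Of 26 tested, 10 were higher and 0 lower in the limma fit (38.5% and 0%, with 11.4% and 12.1% in all tested), with a median of 0.65. The footprints of 15 were higher (18.9% in all coding sequences tested). Gadd45a, a growth arrest gene, was at 8.06 and 6.08 RPKM with PBS and 36.3 and 39.3 RPKM at 21 h, a log2 fold change of 2.27 (adjusted p = 0.00186, SE 0.34). Pmaip1, the NOXA gene, which encodes an antagonist of MCL1, was at 7.23 and 7.37 RPKM and then 41.8 and 35.9 RPKM, a log2 fold change of 2.26 (adjusted p = 0.000104, SE 0.19). Plk3, a stress-induced kinase gene, was at 4.9 and 4.07 RPKM and then 17.1 and 22.6 RPKM, a log2 fold change of 1.92 (adjusted p = 0.00086, SE 0.24). All 3 were higher in both treated libraries, as were all 1091 transcripts called higher and 3170 of the 9592 tested. Trp53 itself was at 74.3 and 70.2 RPKM and then 112 and 94.4 RPKM, a log2 fold change of 0.51 (adjusted p = 0.0189, SE 0.13), and its call was lost without PBS library 1, PBS library 2 or 21 h library 1 (adjusted p of 0.0716 to 0.112). Trp53 was not called without the trend. Without either 6 h library, 1 of the list was lower. The count of 0 lower by limma was 1 at a mean of at least 10 RPKM, after quantile normalization or with only the 4 libraries compared. The line carries a mutant Trp53 allele, and whether p53 acted on these genes was not tested.

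Among 29 apoptosis regulators tested, 3 were higher and 3 lower (10.3% and 10.3%, with 11.4% and 12.1% in all tested), with a median of 0.13. The survival gene Bcl2 was at 3.86 and 5.69 RPKM with PBS and 0.504 and 0.401 RPKM at 21 h, a log2 fold change of -1.97 (adjusted p = 0.00632, SE 0.39), on a span of 176 kb. Bcl2 had a log2 fold change of -0.84 with a pseudocount of 5 and -3.23 with voom. It had 4 and 3 reads at 21 h and fell below the filter without either PBS library. Diablo, which encodes the mitochondrial antagonist of caspase inhibitors, was at 9.66 and 12.3 RPKM and then 24.7 and 25.6 RPKM, a log2 fold change of 1.14 (adjusted p = 0.00357, SE 0.20). The BH3-only gene Bcl2l11 rose by 0.75, and this call was lost without any 1 of the 4 libraries compared (adjusted p of 0.0709 to 0.111). The count of 3 lower was 1 without PBS library 1, 0 without PBS library 2 and 1 without 21 h library 2. The count of 3 lower was 1 without a filter, without scaling or without the trend. The median was 0.20 without PBS library 1, 0.06 without PBS library 2 and 0.08 with a pseudocount of 5.

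NF-kB drives cytokine and chemokine genes and its own inhibitors. Of 32 tested, 14 were higher and 1 was lower (43.8% and 3.12%, with 11.4% and 12.1% in all tested), with a median of 0.68, which was 0.32 at a mean level of at least 10 RPKM. Il6, the cytokine that the study follows, had 0 reads in both PBS libraries and 12 and 11 at 21 h. It was at least 8.79-fold higher against a floor of 3 reads over the PBS group. The fitted log2 fold change of Il6, 3.38 (adjusted p = 0.00053, SE 0.39), depends on the pseudocount, and Il6 fell below the filter without either 21 h library. Ccl20, a chemokine gene of lymphocyte and dendritic cell attraction, was at 2.53 and 3.68 RPKM with PBS and 12.1 and 14.9 RPKM at 21 h, a log2 fold change of 1.83 (adjusted p = 0.00211, SE 0.28). The interferon-induced chemokine gene Cxcl10 was at 75.3 and 63.3 RPKM and then 107 and 100.1 RPKM, a log2 fold change of 0.58 (adjusted p = 0.0223, SE 0.15), and lost its call without PBS library 2, 21 h library 1 or 21 h library 2 (adjusted p of 0.0629 to 0.148). Ccl5 went from 77.4 and 74.1 RPKM to 57.9 and 61.4 RPKM and did not pass the test (log2 fold change -0.34 (adjusted p = 0.0711, SE 0.12)), though it was called lower after quantile normalization. The adhesion gene Vcam1 was the 1 called lower, and it was chosen after its values were seen. The count of 14 higher was 9 without either PBS library, 7 without 21 h library 1 and 8 without 21 h library 2, and the count of 1 lower was 2 without either 6 h library. Ccl20 had a log2 fold change of 1.19 with a pseudocount of 5. Cxcl10 was not called without the trend or without a filter. The count of 1 lower was 2 at a mean of at least 10 RPKM, with only the 4 libraries compared or with voom and 3 after quantile normalization.

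Cytosolic DNA is sensed by cGAS, which activates STING in the ER membrane. The adaptor gene Sting1 was too low to test, with 0 and 3 reads with PBS and 3 and 3 at 21 h. Cgas was at 4.42 and 5.15 RPKM with PBS and 9.39 and 10.4 RPKM at 21 h, a log2 fold change of 0.92 (adjusted p = 0.022, SE 0.24), with more footprints as well (1.52, limma adjusted p = 0.000485). Tollip, which encodes an adaptor of innate immune signalling, was the other transcript called higher among the 12 of this list tested, with 0 lower in the limma fit (16.7% and 0%, with 11.4% and 12.1% in all tested), and had a log2 fold change of 0.56. The call of Cgas was lost without any 1 of the 4 libraries compared (adjusted p of 0.065 to 0.12) and that of Tollip without any 1 of the 4 libraries compared (adjusted p of 0.0643 to 0.227), and in each of these limma fits 0 of the list were higher. The median of the list was 0.23. The median was 0.15 without 21 h library 2. Cgas had a log2 fold change of 0.61 with a pseudocount of 5. Tollip was not called without the trend, without a filter, after quantile normalization or with a replicate block. The count of 2 higher was 1 without a filter, at a mean of at least 10 RPKM, after quantile normalization, without the trend or with a replicate block. The count of 0 lower by limma was 1 with only the 4 libraries compared. Without either 6 h library, 1 of the 12 was lower.

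Genes induced by interferon did not share a direction. Of 32 tested, 3 were higher and 6 lower (9.38% and 18.8%, with 11.4% and 12.1% in all tested), with a median of -0.05. Ifit3, which encodes an antiviral protein, fell by 0.83, Ifit3b by 0.75 and Ifi44 by 0.63. Ifit3 and Ifit3b are near-identical copies, so the reads of each are uncertain. Ifi44 lost its call without PBS library 1 or PBS library 2 (adjusted p of 0.0748 and 0.0584), Ifit3 without PBS library 1, PBS library 2 or 21 h library 1 (adjusted p of 0.057 to 0.0824), and Ifit3b without PBS library 1, PBS library 2 or 21 h library 1 (adjusted p of 0.0561 to 0.208). The count of 6 lower was 1 without either PBS library and 2 without 21 h library 1. In limma, the count of 3 higher was 0 without PBS library 1, PBS library 2 or 21 h library 2, and 1 without 21 h library 1. Ifit3 had a log2 fold change of -0.48 without 21 h library 1. Ifi44 and Ifit3 were not called without the trend. Ifit3b was not called without the trend or without a filter. The count of 3 higher by limma was 1 without a filter or after quantile normalization and 0 without the trend, and the count of 6 lower was 1 without the trend. The median was -0.01 without PBS library 1 or without scaling, -0.09 without PBS library 2, -0.10 without 21 h library 2 or after quantile normalization and -0.08 at a mean of at least 10 RPKM.

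Replication genes load and fire origins and supply nucleotides. All 43 of the list were tested, and 28 were higher and 2 lower (65.1% and 4.65%, with 11.4% and 12.1% in all tested), with a median of 0.72. Cdc6, an origin licensing gene, was at 21 and 17.4 RPKM with PBS and 64.8 and 68.3 RPKM at 21 h, a log2 fold change of 1.74 (adjusted p = 0.000129, SE 0.15). Orc6, which encodes a subunit of the origin recognition complex, was at 32 and 40.5 RPKM and then 124 and 116 RPKM, a log2 fold change of 1.71 (adjusted p = 0.000104, SE 0.14). Both stood apart from their controls, as did all 1091 transcripts called higher and 3170 of the 9592 tested. The 2 that fell encode parts of the polymerase alpha and primase complex, which starts each DNA chain. Pola1, with a span of 328 kb, was at 8.38 and 12.1 RPKM and then 3.05 and 2.88 RPKM, a log2 fold change of -1.48 (adjusted p = 0.00564, SE 0.28). Prim2, with a span of 216 kb, was at 13.2 and 27.9 RPKM and then 7.34 and 5.35 RPKM, a log2 fold change of -1.47 (adjusted p = 0.0189, SE 0.37). The call of Pola1 was lost without PBS library 2 (adjusted p = 0.0627), and that of Prim2 without PBS library 2 or 21 h library 2 (adjusted p of 0.142 and 0.0974). The count of 28 higher was 14 without PBS library 1, 17 without PBS library 2, 17 without 21 h library 1 and 16 without 21 h library 2. Pola1 had a log2 fold change of -0.93 with a pseudocount of 5 and Prim2 one of -0.96 without PBS library 2. Prim2 was not called without the trend or without a filter. The count of 2 lower was 1 without a filter, at a mean of at least 10 RPKM or without the trend.

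Genes of mitosis and G2 also tended to be higher. Of 39 tested, 20 were higher and 0 lower in the limma fit (51.3% and 0%, with 11.4% and 12.1% in all tested), with a median of 0.49. Mki67, the gene of the proliferation antigen Ki-67, was at 13.4 and 13.7 RPKM with PBS and 40.6 and 44.6 RPKM at 21 h, a log2 fold change of 1.58 (adjusted p = 0.000343, SE 0.17). Ncaph, which encodes a condensin subunit, was at 19.3 and 22.6 RPKM and then 49.7 and 61.3 RPKM, a log2 fold change of 1.36 (adjusted p = 0.000813, SE 0.17). The kinetochore gene Ndc80 rose by 1.33 and Incenp, a gene of the chromosomal passenger complex, by 1.31. The count of 20 higher was 11 without PBS library 1, 13 without PBS library 2 and 12 without 21 h library 2. How many cells were in each phase was not tested.

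Replication-dependent histone genes lie in clusters and encode near-identical copies, so the reads of a single copy are uncertain. Their mRNAs end in a stem-loop and carry no poly(A) tail. Of 56 tested, 18 were higher and 1 was lower (32.1% and 1.79%, with 11.4% and 12.1% in all tested), with a median of 0.43. The footprint median of 55 tested was 0.01, with 5 higher and 7 lower (18.9% and 20.2% in all coding sequences tested). H2ac6 was at 3.97 and 3.3 RPKM with PBS and 10.9 and 10.8 RPKM at 21 h, a log2 fold change of 1.36 (adjusted p = 0.00982, SE 0.29). H3c3 rose by 1.16, H2ac11 by 1.28 and H2ac24 by 1.14. Footprint log2 fold changes were -0.76 for H2ac11 (limma adjusted p = 0.0125), 0.05 for H2ac6, -0.14 for H3c3 and 0.11 for H2ac24. The linker histone gene H1f5 was the 1 that fell, and it was chosen after its values were seen. The call of H2ac6 was lost without PBS library 2 or 21 h library 2 (adjusted p of 0.0629 and 0.0506), and that of H2ac11 without PBS library 2 or 21 h library 1 (adjusted p of 0.141 and 0.12). The count of 18 higher was 7 without PBS library 2, 12 without 21 h library 1 and 10 without 21 h library 2, and the count of 1 lower was 2 without PBS library 2. H2ac6 had a log2 fold change of 0.88 with a pseudocount of 5. H2ac11 was not called without the trend, without a filter or with voom. H2ac24 was not called with voom. The count of 18 higher was 11 without a filter and 7 without the trend.

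Of 55 genes of the DNA damage checkpoint and of crosslink and excision repair that were tested, 12 were higher and 0 lower in the limma fit (21.8% and 0%, with 11.4% and 12.1% in all tested), with a median of 0.24. Rad9a, a gene of the checkpoint clamp, was at 9.04 and 8.58 RPKM with PBS and 22.6 and 23.1 RPKM at 21 h, a log2 fold change of 1.28 (adjusted p = 0.0109, SE 0.28). Brca1, which acts in homologous recombination and crosslink repair, was at 6.4 and 8.49 RPKM and then 16.1 and 18.6 RPKM, a log2 fold change of 1.13 (adjusted p = 0.00764, SE 0.23). The recombination gene Rad51c rose by 1.19 and Ercc8, a gene of transcription-coupled repair, by 1.11. These 4 calls rest on few libraries. Ercc8 lost its call without any 1 of the 4 libraries compared (adjusted p of 0.109 to 0.141), and Rad9a without PBS library 1, PBS library 2 or 21 h library 2 (adjusted p of 0.0526 to 0.0603). Rad51c lost its call without PBS library 2, 21 h library 1 or 21 h library 2 (adjusted p of 0.0747 to 0.176), and Brca1 without PBS library 1 or 21 h library 2 (adjusted p of 0.062 and 0.0523). The count of 12 higher was 5 without PBS library 1, 4 without PBS library 2, 4 without 21 h library 1 and 3 without 21 h library 2. Rad51c had a log2 fold change of 0.76 without PBS library 2 and 0.73 with a pseudocount of 5 and Ercc8 one of 0.72 with a pseudocount of 5. Rad51c was not called without a filter. Ercc8 was not called without the trend or without a filter. The median was 0.14 with a pseudocount of 5.

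RNA polymerase II and its elongation factors transcribe all mRNA genes. Of 41 tested, 12 were higher and 0 lower in the limma fit (29.3% and 0%, with 11.4% and 12.1% in all tested), with a median of 0.34. Polr2a (ENSMUSG00000005198), which encodes the catalytic subunit, was at 18.6 and 19.2 RPKM with PBS and 91.2 and 92.5 RPKM at 21 h. Its groups were far apart, with a log2 fold change of 2.22 (adjusted p = 3.29e-05, SE 0.13) in RNA and 2.26 in footprints. Hexim1, whose product holds the elongation kinase P-TEFb inactive, was at 7.69 and 10.2 RPKM and then 38.9 and 35.5 RPKM, a log2 fold change of 1.95 (adjusted p = 0.000561, SE 0.23). Ccnt1, the gene of the cyclin of that kinase, was at 14.9 and 14.3 RPKM and then 32.9 and 34.7 RPKM, a log2 fold change of 1.16 (adjusted p = 0.00198, SE 0.18). Its paralog Ccnt2 rose by 0.85, a call lost without any 1 of the 4 libraries compared (adjusted p of 0.117 to 0.142). The count of 12 higher was 7 without PBS library 1, 5 without PBS library 2, 6 without 21 h library 1 and 6 without 21 h library 2. Ccnt2 had a log2 fold change of 0.54 with a pseudocount of 5. Ccnt2 was not called without a filter. The count of 12 higher was 7 without the trend, and the count of 0 lower by limma was 1 with voom.

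Of 200 zinc finger genes named Zfp that were tested, 27 were higher and 4 lower (13.5% and 2%, with 11.4% and 12.1% in all tested), with a median of 0.33. After Zfp36, described above, the largest changes were in Zfp296, Zfp948 and Zfp827. Zfp296, a nuclear factor gene, had 1 and 5 reads with PBS and 13 and 14 at 21 h, with a log2 fold change of 1.98 (adjusted p = 0.0136, SE 0.46). Zfp948 was at 8.1 and 2.81 RPKM with PBS and 19.5 and 16.7 RPKM at 21 h, a log2 fold change of 1.69 (adjusted p = 0.00987, SE 0.36). Zfp827, with a span of 166 kb, was at 13.9 and 14.8 RPKM and then 4.42 and 3.19 RPKM, a log2 fold change of -1.69 (adjusted p = 0.00162, SE 0.25). The call of Zfp296 was lost without PBS library 1 or 21 h library 2 (adjusted p of 0.095 and 0.0689), and that of Zfp948 without 21 h library 1 (adjusted p = 0.0526). The count of 27 higher was 12 without PBS library 1, 13 without PBS library 2, 12 without 21 h library 1 and 16 without 21 h library 2, and the count of 4 lower was 2 without PBS library 2. Zfp296 had a log2 fold change of 1.04 with a pseudocount of 5 and Zfp948 one of 1.06 without PBS library 2. The count of 27 higher was 17 without a filter or at a mean of at least 10 RPKM and 42 with voom, and the count of 4 lower was 7 without the trend and 8 with voom. The median was 0.20 with a pseudocount of 5 and 0.17 without a filter.

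Ribosomal protein mRNAs are abundant, and many have near-identical processed copies in the genome, so single values are uncertain. Of 81 tested, 1 was higher and 39 were lower (1.23% and 48.1%, with 11.4% and 12.1% in all tested), with a median log2 fold change of -0.23. The median was below 0 under every scaling tried. The count of 39 lower was 16 without PBS library 1, 19 without PBS library 2 and 18 without 21 h library 2. The count of 1 higher by limma was 0 without a filter, without the trend, with only the 4 libraries compared or with a replicate block and 3 after quantile normalization. The count of 39 lower was 18 without a filter, 9 after quantile normalization, 3 without the trend and 60 with voom. The median was -0.04 after quantile normalization. Rpl3 was at 1170.0 and 1135 RPKM with PBS and 633 and 594 RPKM at 21 h, a log2 fold change of -0.91 (adjusted p = 6.94e-05, SE 0.07). The paralog gene Rpl22l1 was at 299 and 260.2 RPKM and then 100.1 and 80.1 RPKM, a log2 fold change of -1.63 (adjusted p = 0.000352, SE 0.17). The span of Rpl22l1 was 1.92 kb. Rps18, of the small subunit, fell by 0.59. Rps10 had 17 and 9 reads with PBS and 5 and 1 at 21 h, and its call (log2 fold change -1.88) was lost without PBS library 1 or 21 h library 2 (adjusted p of 0.178 and 0.129). Rps10 had a log2 fold change of -1.05 without 21 h library 2 and -1.20 with a pseudocount of 5. Rps10 was not called without the trend or without a filter. The 1 called higher, Rpl7l1, was chosen after its values were seen and was not called in any of the 6 fits that left out a library. In footprints the list's median was 0.09, with 18 of 78 higher and 8 lower (18.9% and 20.2% in all coding sequences tested).

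Initiation and elongation factors of translation had a median of 0.00, with 10 higher and 7 lower of 51 tested (19.6% and 13.7%, with 11.4% and 12.1% in all tested), and this median had the opposite sign after quantile normalization, with only the 4 libraries compared, and without PBS library 2, 21 h library 2 or either 6 h library. The median was 0.02 without PBS library 1 or with voom, 0.04 without 21 h library 1, -0.04 without 21 h library 2, 0.03 without a filter, 0.05 at a mean of at least 10 RPKM or without scaling and -0.01 with only the 4 libraries compared. The elongation factor gene Eef1a1 had the largest loss in RPKM of all called transcripts. It was at 5744 and 5271 RPKM with PBS and 4569 and 4192 RPKM at 21 h, a log2 fold change of -0.33 (adjusted p = 0.00454, SE 0.06). Eif1, which guides the choice of the start codon, was at 445 and 474 RPKM and then 767 and 663 RPKM, a log2 fold change of 0.63 (adjusted p = 0.00114, SE 0.09). Eif2b4, a gene of the exchange factor for eIF2, rose by 0.79 and Eif2d, which encodes a factor of alternative initiation, by 0.62. The scaffold gene Eif4g3, with a span of 215 kb, was at 4.18 and 2.93 RPKM and then 0.891 and 1.18 RPKM, a log2 fold change of -1.15 (adjusted p = 0.0462, SE 0.36). Its call was lost without any 1 of the 4 libraries compared (adjusted p of 0.105 to 0.246). Eif2b4 lost its call without PBS library 1 or 21 h library 2 (adjusted p of 0.0691 and 0.0645), and Eif2d without PBS library 2 (adjusted p = 0.0801). The count of 10 higher was 4 without either PBS library and 6 without 21 h library 2, and the count of 7 lower was 3 without PBS library 1, 4 without PBS library 2 and 4 without either 21 h library. Eef1a1 had a log2 fold change of 0.00 after quantile normalization and Eif4g3 one of -0.50 with a pseudocount of 5. Eef1a1 was not called without the trend or after quantile normalization. Eif2d was not called without the trend. Eif4g3 was not called without a filter, after quantile normalization, without scaling, with a replicate block or with a pseudocount of 5. The count of 10 higher was 2 without the trend, and the count of 7 lower was 1 without the trend and 12 with voom.

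Mitochondrial DNA is transcribed by its own polymerase into long precursors. Of the 10 mRNAs it encodes that were tested, 0 were higher in the limma fit and 8 were lower (0% and 80.0%, with 11.4% and 12.1% in all tested), with a median of -0.30. In footprints, by contrast, 9 were higher and 0 lower (18.9% and 20.2% in all coding sequences tested), with a median of 0.62. The complex I mRNA mt-Nd4l was at 539.8 and 531 RPKM with PBS and 317 and 346 RPKM at 21 h. The log2 fold change of its RNA was -0.69 (adjusted p = 0.000463, SE 0.08), and its footprints rose by 0.88 (adjusted p = 0.000451). The RNA of mt-Nd3 and of mt-Nd5, further subunits of complex I, fell by 0.58 and 0.58, and that of mt-Nd2 by 0.37. Among the most abundant RNAs, mt-Co1 of cytochrome oxidase was at 6035 and 5662 RPKM and then 5369.6 and 4682 RPKM, mt-Co2 at 4317 and 4142 RPKM and then 3681 and 3405 RPKM, and mt-Atp6 of ATP synthase at 4353 and 4289 RPKM and then 3416 and 3353 RPKM. They fell by 0.22, 0.26 and 0.35, and each of these 3 calls was lost when 1 of several libraries was left out. This held for mt-Co1 without PBS library 1, PBS library 2 or 21 h library 2 (adjusted p of 0.0681 to 0.197), for mt-Co2 without PBS library 1, PBS library 2 or 21 h library 2 (adjusted p of 0.0629 to 0.123), and for mt-Atp6 without PBS library 1, PBS library 2 or 21 h library 2 (adjusted p of 0.0526 to 0.0661). The call of mt-Nd2 was lost without PBS library 1 (adjusted p = 0.0669). mt-Co1 had a log2 fold change of -0.12 without 21 h library 2, mt-Co2 one of -0.03 after quantile normalization, and mt-Atp6 one of -0.15 after quantile normalization. mt-Nd3, mt-Nd5 and mt-Nd2 were not called without the trend. mt-Co1 was not called without the trend, without a filter or without scaling. mt-Co2 and mt-Atp6 were not called without the trend, without a filter or after quantile normalization. The median was -0.16 after quantile normalization. The count of 8 lower was 3 without PBS library 1, 4 without PBS library 2 and 4 without 21 h library 2. The count of 0 higher by limma was 1 after quantile normalization, and the count of 8 lower was 4 without a filter, 5 after quantile normalization and 1 without the trend.

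The nuclear genes of the respiratory chain and ATP synthase had a median of 0.03, with 3 higher and 4 lower of 77 tested (3.9% and 5.19%, with 11.4% and 12.1% in all tested). The median was 0.05 without 21 h library 1 or at a mean of at least 10 RPKM, 0.07 without scaling and -0.02 after quantile normalization. Atp5g2, which encodes subunit c of ATP synthase, was at 304 and 310.5 RPKM with PBS and 211 and 196 RPKM at 21 h, a log2 fold change of -0.59 (adjusted p = 0.00127, SE 0.08). Ndufs4 of complex I, with a span of 100.3 kb, fell by 0.76. Ndufa11 of the same complex rose by 0.58 and Cox7a2 of cytochrome oxidase by 0.41. Ndufs4 lost its call without PBS library 2 or 21 h library 1 (adjusted p of 0.13 and 0.0904), Ndufa11 without PBS library 1 or 21 h library 2 (adjusted p of 0.0771 and 0.0539), and Cox7a2 without PBS library 1, PBS library 2 or 21 h library 1 (adjusted p of 0.0674 to 0.122). In limma, the count of 3 higher was 0 without PBS library 1 and 1 without PBS library 2 or 21 h library 2. The count of 4 lower was 2 without PBS library 1 and 1 without PBS library 2. Ndufs4 was not called without the trend. Ndufa11 was not called without the trend or with voom. Cox7a2 was not called without the trend, after quantile normalization or with voom. The count of 3 higher by limma was 0 without the trend and 1 with voom, and the count of 4 lower was 2 without a filter and 1 without the trend.

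Glycolytic enzymes turn glucose into pyruvate and lactate. Of 18 tested, 0 were higher in the limma fit and 13 were lower (0% and 72.2%, with 11.4% and 12.1% in all tested), with a median of -0.51, and under the other scalings the median stayed below 0. The phosphofructokinase gene Pfkl was at 70.3 and 70.8 RPKM with PBS and 41 and 36.3 RPKM at 21 h, a log2 fold change of -0.85 (adjusted p = 0.00198, SE 0.13). Pdk1, whose product keeps pyruvate from entering mitochondria, was at 86.2 and 89.3 RPKM and then 53.8 and 40.6 RPKM, a log2 fold change of -0.89 (adjusted p = 0.00292, SE 0.15). The hexokinase gene Hk1, with a span of 111 kb, was at 48.4 and 41.5 RPKM and then 25.2 and 23.4 RPKM, a log2 fold change of -0.86 (adjusted p = 0.00406, SE 0.15). Hk2 fell by 0.76, a call lost without PBS library 1 (adjusted p = 0.0606). The count of 13 lower was 8 without PBS library 1. The count of 13 lower was 5 without the trend.

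Cholesterol synthesis genes respond together to the factor SREBP2. All 25 of the list were tested, 0 were higher in the limma fit and 18 were lower (0% and 72%, with 11.4% and 12.1% in all tested), with a median of -0.75, and all 25 fold changes were below 0. Mvd, which encodes mevalonate diphosphate decarboxylase, was at 31.1 and 17 RPKM with PBS and 4.64 and 4.38 RPKM at 21 h, a log2 fold change of -2.12 (adjusted p = 0.00114, SE 0.29). Fdft1, the squalene synthase gene, was at 34.7 and 32.2 RPKM and then 11.6 and 10.7 RPKM, a log2 fold change of -1.50 (adjusted p = 0.000435, SE 0.17). Hmgcs1, the HMG-CoA synthase gene, was at 87.4 and 92.8 RPKM and then 38.2 and 34.7 RPKM, a log2 fold change of -1.28 (adjusted p = 0.000212, SE 0.12). These 3 lay wholly below their controls, as did all 1162 transcripts called lower and 2949 of the 9592 tested. Hsd17b7, a gene of late sterol steps, fell by 1.30, a call lost without PBS library 2 or 21 h library 1 (adjusted p of 0.111 and 0.0602). In footprints 19 of the 25 were lower and 0 higher in the limma fit (20.2% and 18.9% in all coding sequences tested), with a median of -0.81. The median span of the list was 17.7 kb. The count of 18 lower was 11 without PBS library 2.

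NRF2 induces genes against oxidants, and ferritin and metallothioneins bind metals. Of 24 tested, 8 were higher and 6 lower (33.3% and 25%, with 11.4% and 12.1% in all tested), with a median of 0.17. The metallothionein gene Mt1 was at 772 and 723 RPKM with PBS and 422 and 317 RPKM at 21 h, a log2 fold change of -1.03 (adjusted p = 0.00053, SE 0.12). The span of Mt1 was 1.4 kb. Abcc4, an efflux pump gene with a span of 225 kb, was at 17.7 and 18.9 RPKM and then 5.86 and 5.38 RPKM, a log2 fold change of -1.54 (adjusted p = 0.00096, SE 0.20). Me1, the malic enzyme gene, fell by 0.94. Osgin1, an oxidative stress gene, rose by 0.83, and Fth1, the ferritin heavy chain gene, was at 1463 and 1511 RPKM and then 1834 and 1744 RPKM, a log2 fold change of 0.27 (adjusted p = 0.00959, SE 0.06). Footprints of Fth1 rose by 1.28. The call of Osgin1 was lost without PBS library 1, PBS library 2 or 21 h library 2 (adjusted p of 0.089 to 0.146), and that of Fth1 without PBS library 1 (adjusted p = 0.0743). The count of 8 higher was 1 without PBS library 1, 2 without PBS library 2, 2 without 21 h library 1 and 4 without 21 h library 2. Fth1 had a log2 fold change of 0.48 after quantile normalization. Osgin1 was not called without a filter. Fth1 was not called without the trend. The count of 8 higher was 5 without a filter or after quantile normalization and 1 without the trend. The median was 0.11 without 21 h library 2 and 0.08 after quantile normalization.

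Coat proteins COPI and COPII carry cargo between the ER and the Golgi. Of 34 transport genes tested, 3 were higher and 3 lower (8.82% and 8.82%, with 11.4% and 12.1% in all tested), with a median of -0.01 that had the opposite sign without scaling and without PBS library 1 or 21 h library 1. Copg2, which encodes a COPI subunit, was at 14.9 and 15.8 RPKM with PBS and 2.06 and 1.7 RPKM at 21 h, a log2 fold change of -2.51 (adjusted p = 0.000332, SE 0.26), on a span of 149 kb. Its paralog Copg1, on 25.8 kb, was at 61 and 57 RPKM and then 86.6 and 74.5 RPKM, a log2 fold change of 0.44 (adjusted p = 0.0305, SE 0.12). Of the COPII genes, Sec24d, on 101 kb, fell by 1.29, while Sec23b, on 34.5 kb, rose by 1.01. The part of span in the change of any single gene was not tested. Copg1 lost its call without PBS library 1, PBS library 2 or 21 h library 1 (adjusted p of 0.0934 to 0.159), and Sec24d without PBS library 2 or 21 h library 2 (adjusted p of 0.0901 and 0.0671). The count of 3 higher was 1 without PBS library 1, PBS library 2 or 21 h library 1, and the count of 3 lower was 1 without 21 h library 2. Copg2 had a log2 fold change of -1.57 with a pseudocount of 5. Copg1 was not called without the trend or after quantile normalization. The count of 3 higher was 1 after quantile normalization or without the trend and 5 with voom, and the count of 3 lower was 1 at a mean of at least 10 RPKM. The median was 0.00 without PBS library 1 or without 21 h library 1, -0.03 without PBS library 2, -0.02 without 21 h library 2 or with only the 4 libraries compared, 0.03 without scaling and -0.11 after quantile normalization.

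**Figure D4:**
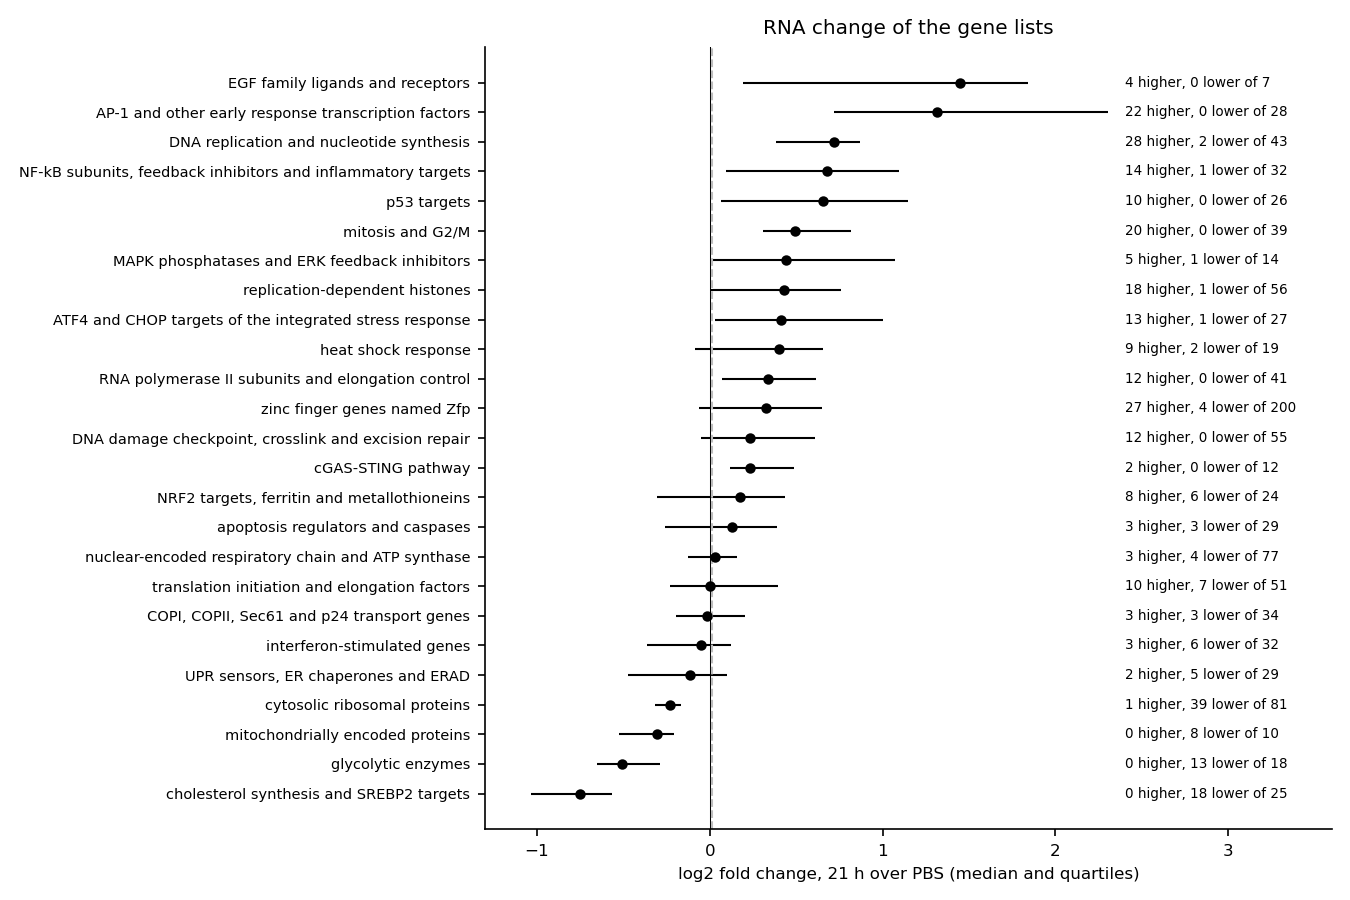
Median log2 fold change at 21 h over PBS with quartiles in 25 gene lists, with the numbers called higher and lower out of those tested at the right. Medians run from -0.75 for cholesterol synthesis to 1.45 for the EGF family, and near 0 the sign of translation factors and of the respiratory chain flips after quantile normalization and that of the transport genes without scaling.

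By RPKM gained, Txnip was followed by histone and stress genes. H2bc18, a histone gene with near-identical copies, was at 938 and 752 RPKM with PBS and 1222 and 1188 RPKM at 21 h, a log2 fold change of 0.52 (adjusted p = 0.00834, SE 0.11), and lost its call without PBS library 2 (adjusted p = 0.0608). Sqstm1, which encodes the autophagy receptor p62, was at 193 and 217 RPKM and then 529 and 576 RPKM, a log2 fold change of 1.42 (adjusted p = 3.29e-05, SE 0.09). H3f3b, one of the genes of the replication-independent histone H3.3, was at 576 and 525 RPKM and then 886 and 828 RPKM, a log2 fold change of 0.64 (adjusted p = 0.00058, SE 0.08). Among the losses, Gm9844, a predicted gene whose reads may be shared with copies, was at 3488 and 3179 RPKM and then 2719 and 2254 RPKM. It fell by 0.43 and lost its call without PBS library 1 (adjusted p = 0.0599). Gm9844 had a log2 fold change of -0.22 after quantile normalization. H2bc18 and Gm9844 were not called without the trend.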

How the data were processed

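The authors deposited RPKM for each RNA-seq library, reads of a representative transcript of each gene divided by the whole length of the transcript and by the library total, and the labels name GRCm39, cutadapt and STAR. Multiplied by length, 100% of the values were whole multiples of 1 read within a tolerance of 0.01, which gave the reads, and unlisted transcripts were set to 0. Lars2, Tmem38b and Mettl26 were taken out, RPKM rescaled to the reads left, and libraries scaled by median of ratios. Transcripts with a mean of at least 2 RPKM over the 6 RNA-seq libraries were fitted in 1 model with 3 groups, two-sided, with limma 3.58.1 in R 4.3.3 (lmFit, eBayes with a trend) on log2(RPKM + 1). P-values were adjusted by Benjamini-Hochberg over all 9592, with a threshold of 0.05. Footprints were fitted likewise with a pseudocount of 0.5 and a mean of at least 1 RPKM. The fit was tested on simulated data. Tables and figures were made with Python 3.11.15, pandas 2.3.3, numpy 2.4.6, scipy 1.17.1 and matplotlib 3.10.9.

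Genes were named by rule: the 12 largest rises and 12 largest falls among called transcripts whose groups did not overlap, with at least 20 reads on average in the higher group; the 5 largest gains and 5 largest losses in RPKM; in each of the 25 gene lists, up to 4 called members with the largest changes; and genes fixed by name, most of which the study follows. Genes outside the rule are said to be chosen after their values were seen. The members and lists were chosen with earlier results of these data known. Medians of lists and of span classes were the same when transcripts with a group at 0 were set to their bound against 3 reads. Alternatives were other pseudocounts, filters and scalings, the 3 transcripts kept, eBayes without a trend, a model without the 6 h libraries, a block for the replicate number, voom on the reads, a threshold of 0.1, a limit on the fold change, transcript length in place of span, and each library left out in turn.

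Some genes are not reported here.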

Additional observations from a re-analysis of the deposited data

Results flagged for a closer look

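Changes at 21 h differed from those at 6 h in many genes, by limma's contrast of the 21 h and 6 h libraries with Benjamini-Hochberg adjustment. RNA of 699 of the 9592 transcripts was higher at 21 h than at 6 h (7.29%) and that of 767 lower (8%). At 6 h against PBS, 0 of the 9592 passed the test. Most genes listed here were named for their 21 h values, which this contrast uses again. The difference on the log2 scale, 21 h minus 6 h, was 2.99 for Atf3, 2.83 for Fosb, 2.63 for Jun, 2.51 for Dusp1, 2.48 for Egr1, 2.38 for Ptgs2, 2.37 for Fos, 2.29 for Btg2, 2.28 for Txnip, 2.17 for Cyp1a1, 1.47 for Cxcl2 and 1.45 for Zfp36. It was -4.34 for Babam2, -3.10 for Exoc6b, -3.03 for Snd1, -2.96 for Lpp, -2.89 for 3110082I17Rik, -2.64 for Fto, -2.58 for Msi2, -2.58 for Prkca, -2.52 for Exoc4, -2.51 for Slc39a11, -2.32 for Supt3 and -2.31 for Agap1. It was 3.38 for Il6, 2.21 for Ddit3, 0.68 for Hspa5 and -0.92 for Xbp1. Of the 91 other genes named, 64 differed between the times, 36 of them higher at 21 h. Values of genes at or near 0 reads in a group depend on the pseudocount.

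Among the 3 transcripts taken out, Tmem38b held 14.7 and 14.4% of all RNA-seq reads with PBS and 15.1 and 15.0% at 21 h. Its lowest 21 h share lay above both PBS shares. Lars2 went the other way, from 38.7 and 38.4% with PBS to 37.6 and 35.8% at 21 h, and the shares of Mettl26 overlapped. These differences were not tested.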

How the results depend on the processing

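The 24 largest fold changes were called, with no limit on the fold change, in every other fit in which they were tested, and so were 73 of the 129 genes tested that the naming rule chose. None of those called changed direction in another fit. Outside the named genes, 1 transcript had opposite calls after quantile normalization. Against 1091 higher and 1162 lower, 697 were higher in eBayes without the trend, 350 were higher and 598 lower with the limit on the fold change, and voom gave 1522 and 1576. With each library left out in turn, 505 to 1148 were higher and 552 to 1184 lower. A replicate block, which pairs libraries by number, gave 1044 and 1109, though the numbers do not pair. The median of genes under 5 kb (0.08) was 0 without a filter. The median of genes of 200 kb and over (-1.62) was -1.92 with a pseudocount of 0.2, -0.91 with 5, -0.55 without a filter and -1.54 at a mean of at least 10 RPKM. It was -1.47 after quantile normalization, -1.98 with voom and -1.65 to -1.54 with 1 library left out. Classes by transcript length hold other transcripts, with medians of 0.0158 in the shortest and -0.20 in the longest. The cause of these differences was not tested. A fit that leaves out a library assumes that the lone library of a group varies like the others. With 1007194 to 1341584 reads left per library, changes of transcripts with few reads could be missed.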
